A study of Mus musculus with 12 samples.

Results

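*Etv2* and 9 further transcription factors of the endothelial and blood lineages were followed in embryonic mouse hearts with or without conditional deletion of *Hira*, which encodes a histone chaperone. They were taken by symbol as 10 of the 20368 genes in the deposited table: *Etv2*, *Fli1*, *Erg*, *Elk3* and *Ets1* of the ETS family, *Sox7*, *Sox17* and *Sox18* of the SOX-F group, and *Tal1* and *Lmo2*. The set was drawn up with earlier results of these libraries in view, and *Etv2* was chosen by its difference between genotypes at E12.5, where it was among the genes with the largest rise, so the values of all 10 genes in that contrast are given as a description. RNA-seq was made from hearts of CD1 embryos at E11.5 and E12.5, with 3 libraries per genotype and stage. Controls were Mesp1Cre;Hira+/fl, and mutants were Mesp1Cre;Hira-/fl. All hearts therefore carried the Cre and 1 floxed *Hira* allele, and the other allele was wild type in controls and null in mutants. Mesp1Cre acts in the mesodermal progenitors of the heart, so that cells from other sources, such as neural crest, keep the floxed allele. No label says whether a library was made from 1 heart or from a pool, or which litter it came from, so the p-values measure the spread between these libraries.

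ETV2 is the ETS factor that specifies endothelial and blood progenitors in early mesoderm, and its expression is normally brief. TAL1 works with LMO2 in a DNA-bound complex with GATA and E-box factors that is needed for blood formation, and TAL1 also acts in the endocardium. FLI1, ERG, ETS1 and ELK3 take over from ETV2 in maintaining endothelial genes, and the SOX-F factors guide the formation of arteries, veins and lymphatic vessels.

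Libraries held 11994148 to 17483982 counts on the compared genes. *Hira*, the targeted gene, was at 68.6 to 86.2 CPM (read counts relative to the TMM-scaled library size) in E11.5 controls and 57.0 to 73.7 in E11.5 mutants, a difference of -0.26 on the log2 scale (SE 0.14, edgeR adjusted p = 0.607). At E12.5 it was -0.01 (SE 0.12), and the counts cover the whole gene, so reads on the deleted part could not be separated. From 4 Y-linked genes, all E11.5 control libraries were male, as were E11.5 mutant replicate 3, E12.5 control replicate 3 and E12.5 mutant replicate 1, and the other libraries were female. Genotype and sex were thus partly confounded at E11.5, and stage and sex were in controls, so fits with sex as a covariate are given beside the results that they change. At E11.5 such a fit sets the 1 male mutant library, replicate 3, against the controls. Between stages in controls it sets the 1 male E12.5 control, replicate 3, against the E11.5 controls. These sex-adjusted values rest on 1 library and are a description. Cardiomyocyte markers of the labelled tissue were abundant in every library, and the endothelial markers *Cdh5* and *Pecam1* averaged 142.3 and 142.0 CPM in E11.5 controls.

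The 250 bases before the annotated start are shown for the 3 genes on which the results below turn, because *Etv2* itself, *Tal1* and *Erg* gave the clearest differences with genotype or stage. The sequences are from RefSeq on GRCm38.p6, which gave a promoter for 4 of the 10 genes (*Etv2*, *Tal1*, *Erg* and *Elk3*), and are written 5′ to 3′ on the strand of the gene. Capitals mark the ETS core GGAA on either strand (TTCC on the reverse). The windows are chr7:30635853-30636102 on the minus strand for *Etv2*, chr4:115056176-115056425 on the plus strand for *Tal1*, and chr16:95586594-95586843 on the minus strand for *Erg*.
Etv2: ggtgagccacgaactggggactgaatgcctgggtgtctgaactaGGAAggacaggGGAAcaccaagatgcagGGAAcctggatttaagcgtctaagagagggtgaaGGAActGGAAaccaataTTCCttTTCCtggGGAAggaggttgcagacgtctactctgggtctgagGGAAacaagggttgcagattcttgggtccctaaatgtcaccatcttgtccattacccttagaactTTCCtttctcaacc
Tal1: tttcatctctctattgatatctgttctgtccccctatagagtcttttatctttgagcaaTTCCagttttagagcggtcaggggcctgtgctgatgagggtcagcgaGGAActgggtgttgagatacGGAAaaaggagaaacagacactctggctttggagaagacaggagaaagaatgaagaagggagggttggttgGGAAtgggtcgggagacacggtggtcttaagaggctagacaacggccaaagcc
Erg: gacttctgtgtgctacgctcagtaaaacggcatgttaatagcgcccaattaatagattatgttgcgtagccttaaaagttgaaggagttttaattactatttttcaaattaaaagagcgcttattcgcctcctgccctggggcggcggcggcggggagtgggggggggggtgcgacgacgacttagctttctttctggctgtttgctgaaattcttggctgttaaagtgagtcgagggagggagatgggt
The *Etv2* window held 10 matches to GGAA, the *Tal1* window 4, the *Elk3* window 2 and the *Erg* window 0. Of 27025 mouse promoters, 93.4% held at least 1 match in the same length, with a median of 3. The letters GATA, on either strand, occurred 4 times before *Tal1* and in none of the other 3 windows, against 54.1% of all promoters with a match. AAGTG, the core bound by NKX2-5, occurred once before *Erg* (40.7% of all promoters), and GAGAG once each before *Etv2*, *Tal1* and *Elk3* (54.5%). GGAA can share bases with AAGTG and with GAGAG. These are matches of letters and not binding sites.

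*Etv2* was low in control hearts and higher in mutant hearts at both stages. The gene (ENSMUSG00000006311) lies at chr7:30633616-30635852 on the minus strand of GRCm38, and no other annotated gene overlaps it. In the 3 E11.5 controls 14, 46 and 32 reads were counted on it, or 0.915, 2.97 and 2.25 CPM. In the 3 E11.5 mutants the counts were 80, 152 and 67, or 5.13, 9.24 and 5.77 CPM. The lowest mutant library thus stood above the highest control. The means were 2.04 ± 1.04 CPM and 6.71 ± 2.21 CPM (SD, n = 3 each), a 3.30-fold difference with a log2 fold change of 1.72 (SE 0.42). This did not pass in edgeR's quasi-likelihood test after adjustment over all genes (adjusted p = 0.173; exact two-sided permutation test p = 0.1, the smallest that 3 against 3 allows). Over the 15 alternatives the fold change ran from 1.36 to 2.10 and the adjusted p from 0.0103, with DESeq2, to 0.585.

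The *Etv2* levels lay further apart at E12.5, where the controls were lower. The controls had 9, 3 and 17 reads (0.594, 0.169 and 1.05 CPM), and the mutants had 108, 66 and 81 (7.23, 3.85 and 5.30 CPM). The means were 0.603 ± 0.438 and 5.46 ± 1.69 CPM (SD, n = 3 each), and the difference was 9.15-fold (log2 fold change 3.19, SE 0.45). This value chose the gene and is given without a test. It was 2.72 without control replicate 2, 3.87 without control replicate 3 and 2.0 with limma on log2(RPKM + 1), the lowest of its 15 alternatives. *Etv2* was the 9th of 12256 genes by fitted fold change, and its fold rests on fewer than 20 reads in each control library. From E11.5 to E12.5 its log2 fold change was -1.76 (SE 0.59) in controls, where 0.915 CPM in the lowest E11.5 library lay below 1.05 in the highest E12.5 one, and -0.31 (SE 0.30) in mutants, where the groups also overlapped. The value in controls was -0.95 with sex as a covariate, and ran from -2.44 without E12.5 control replicate 3 to -1.30 without E12.5 control replicate 2. The log2 effect of genotype at E12.5 exceeded that at the earlier stage by 1.47 (SE 0.70), but since the choice of *Etv2* rests on the E12.5 libraries this difference is also without a test.

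**Figure D1:**
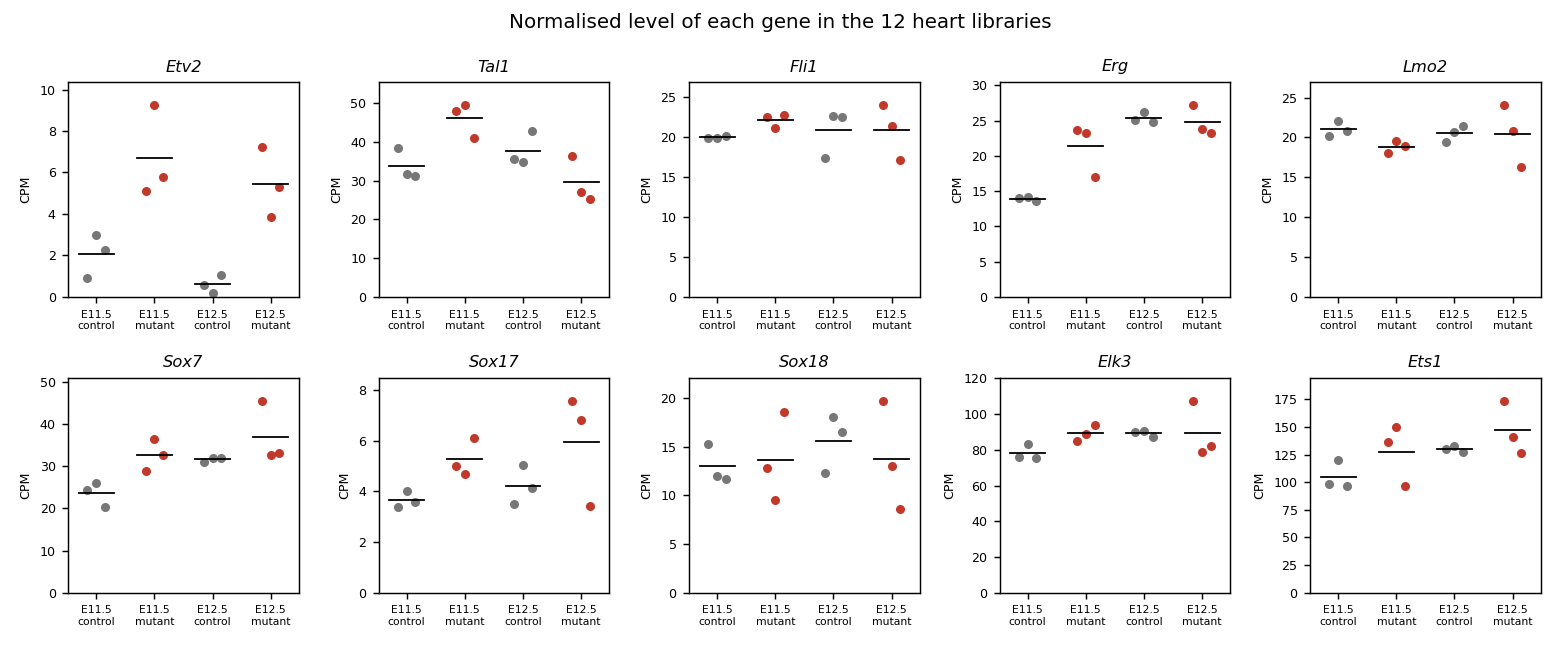
Levels of the 10 genes in CPM (TMM-scaled, linear axes from 0) in each library of the 4 groups, 3 libraries each. Points are libraries, grey for control and red for mutant, and lines are group means. The mutant points of *Etv2* lie above all control points of the same stage, and those of *Erg* do at E11.5 and not at E12.5.

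At E11.5, none of the 10 genes passed edgeR's test at the thresholds for a changed gene, set at 0.05 for the adjusted p and at 1.5-fold for the size. Over all genes, 0.115% of 12197 passed at this stage. An unadjusted p under 0.05 was reached by 4 of the 10, *Etv2*, *Tal1*, *Sox7* and *Erg*, against 10.2% of all genes, and DESeq2 called 1, *Etv2*. The libraries of the genotypes did not overlap for 8 of the 10 (7 higher in mutants and *Lmo2* lower), against 16.3% of all genes. The median log2 fold change of the 10 was 0.374, or 0.289 without *Etv2*, and that of all genes was 0.000199. Since the set was drawn up with earlier results of these libraries in view, these counts and medians are a description. In the same hearts the summed level of 20 endothelial markers ran from 1811 to 2184 CPM in controls and from 2149 to 3024 in mutants (1.29-fold, exact permutation test p = 0.2), with a list median of 0.33. The sums overlapped between genotypes, and their part in the levels of the 10 genes was not tested. In RNA from whole hearts a larger number of cells of a type cannot be told apart from more RNA per cell.

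*Erg*, an ETS factor that maintains endothelial identity, was at 14.05, 14.2 and 13.5 CPM in E11.5 controls and at 23.7, 23.3 and 17.0 CPM in E11.5 mutants. The lowest of the mutant libraries was the male one, and it too was above the controls. The log2 fold change was 0.62 (SE 0.17, edgeR adjusted p = 0.212, with 0.0274 to 0.633 over the alternatives). It passed the thresholds where all 12 libraries were fitted together (edgeR adjusted p = 0.0274). With sex as a covariate it was 0.31, which rests on the male mutant library.

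*Tal1*, which encodes the basic helix-loop-helix partner of LMO2, was at 38.4, 31.8 and 31.1 CPM in E11.5 controls and at 47.9, 49.4 and 41.1 in E11.5 mutants. The groups did not overlap, and the log2 fold change of 0.46 (SE 0.14) had an adjusted p of 0.259 (edgeR). With sex as a covariate it was 0.30.

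Of the SOX-F genes, *Sox7* was at 24.3, 26.1 and 20.4 CPM in E11.5 controls and at 28.8, 36.4 and 32.8 in mutants, a log2 fold change of 0.48 (SE 0.15, edgeR adjusted p = 0.284). *Sox17*, the arterial member, was at 3.398, 4.01 and 3.58 CPM in controls and at 5.002, 4.68 and 6.11 in mutants (0.53, SE 0.24, edgeR adjusted p = 0.496). Both were higher in each mutant library than in each control. *Sox18*, which acts ahead of *Prox1* in lymphatic specification, overlapped between groups at 11.7 to 15.2 CPM in controls and 9.48 to 18.5 in mutants (0.07, SE 0.26), and it was -0.21 without the male mutant library, replicate 3, and 0.53 with sex as a covariate.

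The other ETS genes differed less. *Ets1* was at 98.4, 119.7 and 96.9 CPM in E11.5 controls and at 136.3, 149.7 and 96.8 in mutants, so that the male mutant library lay below all controls. Its log2 fold change was 0.29 (SE 0.17, edgeR adjusted p = 0.666) and turned to -0.10 with sex as a covariate. *Elk3*, which encodes a ternary complex factor that can repress transcription, ran from 75.3 to 83.3 CPM in controls and from 85.1 to 94.2 in mutants (0.20, SE 0.11), and *Fli1* from 19.8 to 20.1 and from 21.1 to 22.7 (0.16, SE 0.13). *Lmo2*, the LIM-only bridge of the TAL1 complex, was the exception in direction, at 20.2 to 22.0 CPM in controls and 18.0 to 19.5 in mutants (-0.15, SE 0.13, edgeR adjusted p = 0.816).

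At E12.5 the differences of the other 9 genes were smaller than that of *Etv2*. *Etv2* was the only one of the 10 past the thresholds, against 2.96% of 12256 genes tested, and *Etv2* and *Sox7* were the only ones whose groups did not overlap, against 26.4% of all genes. Since this contrast chose the set, nothing is read from these counts. The log2 fold changes of the other 9 ran from -0.33 for *Tal1* (SE 0.14) to 0.50 for *Sox17* (SE 0.28), with a median of 0.00786. *Tal1* was at 35.6, 34.7 and 42.7 CPM in controls and at 36.4, 27.1 and 25.3 in mutants, and *Sox7* at 31.1, 32.1 and 32.1 CPM in controls and at 45.5, 32.6 and 33.1 in mutants. For *Tal1* mutant replicate 1 stood among the controls, and for *Sox7* the same library was the one far above them. *Erg* was level, at 25.1, 26.2 and 24.8 CPM in controls and 27.2, 23.9 and 23.2 in mutants.

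That male E12.5 mutant library, replicate 1, had the highest level of the 3 mutants for all 10 genes. *Elk3* was at 107.3 CPM in it and at 78.6 and 82.2 in the other mutants, against 87.2 to 90.6 in controls. *Ets1* was at 173.4 CPM in it, with 140.9 and 126.7 in the other mutants and 127.1 to 132.7 in controls. *Fli1* was at 24.0, 21.4 and 17.1 CPM in the mutants and 17.4 to 22.7 in controls, *Lmo2* at 24.0, 20.8 and 16.2 against 19.5 to 21.4, and *Sox18* at 19.7, 12.96 and 8.64 against 12.3 to 18.0. *Sox17* was at 7.56, 6.83 and 3.402 CPM against 3.50 to 5.02. The summed endothelial markers were also highest in this library (2805 CPM, against 2177 and 2613), as were the summed erythroid markers (3021, against 2350.0 and 2259) and macrophage markers (94.5, against 73.3 and 69.3). The part of these differences in the gene levels was not tested.

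**Figure D2:**
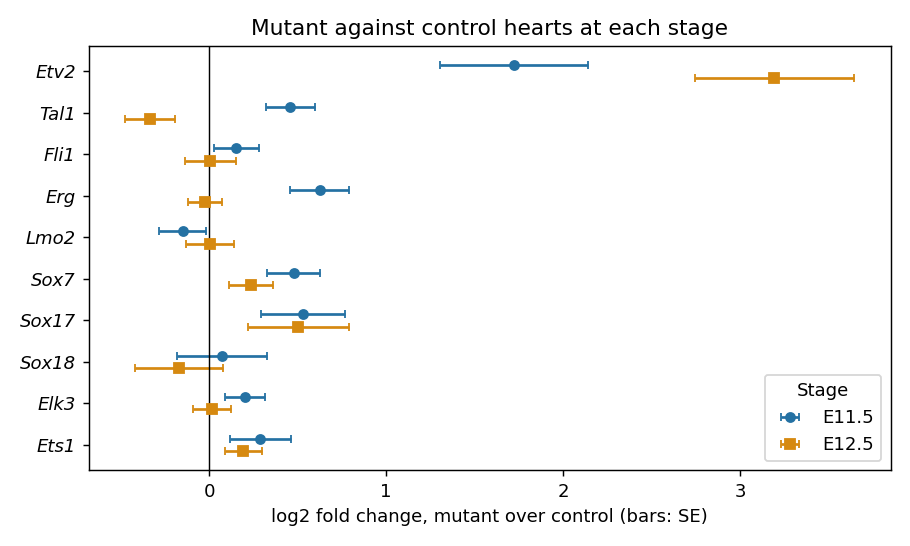
Log2 fold change of mutant over control hearts for each gene at E11.5 (blue circles) and E12.5 (orange squares), with bars of 1 SE. *Etv2* lies at 1.72 and 3.19, and the other 9 genes lie between -0.33 and 0.62.

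To set the levels against the endothelial marker RNA, each library's CPM was divided by its summed endothelial markers. The mutant sums were themselves 1.29-fold those of controls at E11.5 and 1.10-fold at E12.5, and the ratios are not levels per endothelial cell. *Etv2* per 1000 CPM of these markers was 0.497, 1.36 and 1.24 in E11.5 controls and 2.39, 3.06 and 2.45 in mutants. At E12.5 it was 0.258, 0.0726 and 0.462 in controls and 2.58, 1.77 and 2.03 in mutants. The ratios of the means were 2.55 at E11.5 and 8.05 at E12.5, and the groups did not overlap at either stage. On this scale the groups of *Erg* (1.20-fold), *Tal1* (1.07-fold) and *Sox7* (1.08-fold) overlapped at E11.5, and *Lmo2* was lower in mutants without overlap (0.704-fold). That makes 2 of the 10 genes without overlap, *Etv2* and *Lmo2*, where 27.5% of all genes had none. At E12.5 *Etv2*, *Tal1* (0.713-fold) and *Elk3* (0.909-fold) had no overlap, against 21.5% of all genes.

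Between stages, *Erg* rose in control hearts, from 13.9 ± 0.35 to 25.4 ± 0.73 CPM (SD, n = 3 each). Its log2 fold change of 0.87 (SE 0.11, edgeR adjusted p = 0.00491) was past the thresholds, as it was for 5.28% of 12250 genes in this contrast, and 11 of 12 alternatives called it. The exception was sex as a covariate, where the change was 0.84 and rested on the 1 male E12.5 control. The male E12.5 control was at 24.8 CPM, above all 3 male E11.5 controls. *Sox7* had an adjusted p of 0.0415 in edgeR but a log2 change of 0.43 (SE 0.12), below the fold threshold. The stages did not overlap in controls for *Erg*, *Sox7*, *Elk3* (0.19) and *Ets1* (0.31), all higher at E12.5, which is 4 of 10 genes against 37.4% of all genes.

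In mutant hearts none of the 10 genes passed between stages, against 0.556% of 12237 genes in edgeR, and 1 had an unadjusted p under 0.05, against 9.25% of all genes. This was *Tal1*, at 41.1 to 49.4 CPM at E11.5 and 25.3 to 36.4 at E12.5. It was the only one of the 10 whose stages did not overlap (17.4% of all genes), with a log2 fold change of -0.64 (SE 0.16, edgeR adjusted p = 0.18) and an adjusted p of 0.0262 with DESeq2. The change with stage of *Erg* in mutants was 0.21 (SE 0.16), from levels that were already higher at E11.5. The difference in genotype effect between stages was -0.65 for *Erg* (SE 0.18) and -0.80 for *Tal1* (SE 0.21). It holds the E12.5 contrast that entered the choice of the set, so these values are given without a test. Of all 12270 genes, 0% passed in edgeR's test of this difference, 551 had an unadjusted p under 0.05, and DESeq2 called 42.

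**Figure D3:**
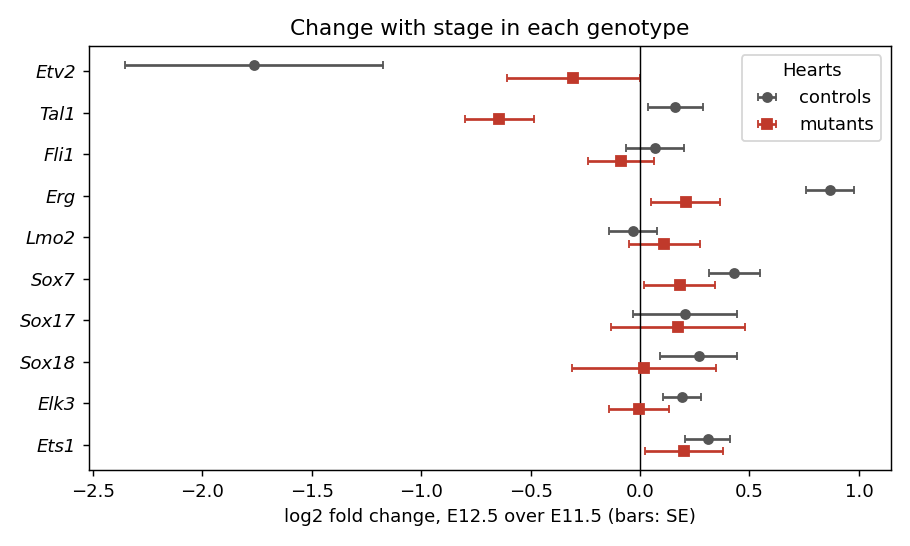
Log2 fold change of E12.5 over E11.5 for each gene in control (grey circles) and mutant hearts (red squares), with bars of 1 SE. *Erg* lies at 0.87 in controls and 0.21 in mutants, and *Tal1* at 0.16 and -0.64.

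The order of the levels was set per length, in RPKM (CPM per kilobase of the gene length used by the authors). *Ets1* and *Elk3* were the highest in all groups, at 20.8 ± 2.52 and 18.5 ± 1.05 RPKM in E11.5 controls (SD, n = 3), and their libraries overlapped each other there. *Lmo2* followed at 11.1 RPKM, and then *Tal1* (8.11), *Sox18* (8.01), *Sox7* (7.22) and *Fli1* (6.47), of which each overlapped its neighbour, and *Erg* at 6.29. *Etv2* at 1.95 and *Sox17* at 1.17 RPKM were the lowest and overlapped each other. In E12.5 controls *Erg* came next after *Ets1* and *Elk3* at 11.5 RPKM, overlapping *Lmo2* at 10.8, and *Etv2* was the lowest at 0.575, below *Sox17* at 1.35. In mutants *Etv2* stood at 6.40 RPKM at E11.5 and 5.21 at E12.5, where it overlapped *Fli1* (7.16 and 6.75) and was above *Sox17* without overlap.

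Of 19 other ETS genes listed, 13 were tested at each stage and 0 passed in edgeR, with list medians of 0.0565 and -0.0464. An unadjusted p under 0.05 was reached by 1 and 3 of them, against 10.2% and 21.4% of all genes at E11.5 and E12.5. The gene *Fev* was at 0.852 ± 0.948 and 2.66 ± 0.772 CPM in E11.5 controls and mutants and at 0.692 ± 0.147 and 2.27 ± 1.17 at E12.5 (SD, n = 3 each), with log2 fold changes of 1.62 (SE 0.66) and 1.71 (SE 0.45, edgeR adjusted p = 0.0561). At E12.5 it was called by DESeq2, with sex as a covariate and without mutant replicate 2, and it was picked after its values had been seen. The highest of the 13, *Gabpa*, was at 108.9 ± 2.82 and 99.9 ± 21.7 CPM in E11.5 controls and mutants (SD, n = 3 each). Of 11 other SOX genes, 8 were tested at E11.5 and 7 at E12.5, and 0 passed at either stage in edgeR or DESeq2. The highest, *Sox12*, had log2 fold changes of 0.11 (SE 0.16) and 0.14 (SE 0.08). At each stage 1 had an unadjusted p under 0.05, which was *Sox6* (-0.51, SE 0.20, and -0.46, SE 0.10, edgeR adjusted p = 0.0222 at E12.5, below the fold threshold). Among partners and cofactors of TAL1 and LMO2, the genotypes did not overlap for 6 of 14 at E11.5 and 8 of 15 at E12.5. Of all genes, 16.3% and 26.4% had no overlap. At each stage 6 had an unadjusted p under 0.05, against 10.2% and 21.4% of all genes. In edgeR 0 of these partners and cofactors were called at either stage, and DESeq2 called 1 and 0. Of these, *Gata2*, a zinc finger factor of blood progenitors and endothelium, was at 13.0 ± 2.73 and 24.2 ± 1.94 CPM in E11.5 controls and mutants (log2 fold change 0.90, SE 0.18, edgeR adjusted p = 0.118) and at 15.1 ± 1.51 and 21.8 ± 3.997 at E12.5 (0.54, SE 0.14, edgeR adjusted p = 0.0569). *Lyl1*, the paralogue of *Tal1*, had 0.76 (SE 0.21) and 0.25 (SE 0.15). Fold changes were positive for 11 of 14 partners at E11.5 (list median 0.26) and for 6 of 15 at E12.5 (list median -0.0231). The largest change of the list at E12.5 was a lower level in mutants, of *Gfi1b* (-1.18, SE 0.36, edgeR adjusted p = 0.0863). *Gata2*, *Lyl1* and *Gfi1b* were picked after their values had been seen.

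Among 17 tested endothelial regulators, edgeR called 1 at E12.5, *Foxc2*, and 0 at E11.5. At E11.5, 6 had an unadjusted p under 0.05, against 10.2% of all genes, and DESeq2 called 3 (*Foxc2*, *Gata2* and *Nfatc1*). FOXC2 is a forkhead factor that binds with ETV2 at composite sites in endothelial enhancers. It was at 17.8, 20.2 and 15.8 CPM in E11.5 controls and at 33.0, 31.8 and 41.8 in mutants, and at 13.9, 13.7 and 19.9 CPM in E12.5 controls and 31.6, 26.1 and 25.8 in mutants. Mutant libraries were above all controls of their stage. The log2 fold changes were 0.99 (SE 0.16, edgeR adjusted p = 0.0815) and 0.83 (SE 0.15, edgeR adjusted p = 0.0142), and the E12.5 call was lost without control replicate 1, control replicate 2 or mutant replicate 1 (0 of 17 called). With sex as a covariate the E11.5 value of *Foxc2* was 1.24, which rests on the 1 male mutant library. Without E12.5 mutant replicate 3 there were 3 calls, *Foxc2*, *Gata2* and *Nfatc1*. *Foxc1*, its relative, had 0.15 and 0.17, and *Nkx2-5*, which encodes a cardiac homeobox factor that activates *Etv2* in early mesoderm, -0.03 and -0.15. *Mesp1* had at most 2 reads in any library.

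Of the 10 annotated genes within 50 kb of *Etv2*, 5 were tested at each stage and 0 were called with genotype by edgeR. *Rbm42*, 5147 bases away and with an RNA-binding product, had log2 fold changes of 0.24 (SE 0.15) and 0.17 (SE 0.07). *Cox6b1*, 7465 bases away and a subunit of cytochrome c oxidase, had -0.16 (SE 0.22) and 0.18 (SE 0.07). The other 3 were *Haus5* (0.10 and -0.12), *Upk1a* (-0.22 and -0.74) and *Kmt2b* (0.11 and 0.01).

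Endothelial markers were not called at E11.5 by edgeR (0 of 20), and 1 was called by DESeq2. At that stage 8 had an unadjusted p under 0.05, against 10.2% of all genes. At E12.5, 2 of 20 rose and 2 fell. *Vwf*, the von Willebrand factor, rose by 1.18 on the log2 scale (SE 0.20, edgeR adjusted p = 0.00985) and the adhesion molecule *Icam2* by 0.65, while the tight junction gene *Cldn5* fell by 1.06 and the guidance receptor *Robo4* by 0.92. Without E12.5 control replicate 1 the called markers were 1 of 20, and without mutant replicate 1 or 3 they were 2. The summed markers were at 2261 to 2331 CPM in E12.5 controls and 2177 to 2805 in mutants (1.10-fold, exact permutation test p = 0.4). Of 8 endocardial markers, *Hapln1* (0.79) and *Tmem100* (0.75) rose at E12.5 (1 of the 8 without mutant replicate 1 or any 1 control), and 0 of 8 were called at E11.5 by edgeR (3 at an unadjusted p under 0.05, 1 called by DESeq2). Of 7 lymphatic markers tested, *Lyve1* (-2.29, SE 0.20, edgeR adjusted p = 0.000814), which is also made by macrophages, and *Reln* (-0.93) fell at E12.5. Below the fold threshold, *Nrp2* (-0.54, SE 0.11, edgeR adjusted p = 0.0222) and *Prox1* (-0.44, SE 0.10, edgeR adjusted p = 0.028) were lower in mutants. *Pdpn* (0.42, SE 0.10, edgeR adjusted p = 0.0397) was higher in mutants but also below the fold threshold. Fold changes were positive for 2 of the 7 at E12.5 (list median -0.443). *Mmrn1* (0.77, SE 0.20, edgeR adjusted p = 0.0519) was called as higher by DESeq2 and with sex as a covariate. At E12.5 all 7 reached an unadjusted p under 0.05, against 21.4% of all genes. Of the 7, 4 were called without control replicate 3 (1 higher and 3 lower) and 3 without mutant replicate 3. At E11.5, 0 of 7 were called by edgeR or DESeq2 (2 at an unadjusted p under 0.05).

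Erythroid markers fell with genotype at E12.5. Of 15 erythroid markers 10 fell, with *Epb42* (-1.66), *Slc4a1* (-1.64), *Hbb-bh1* (-1.61) and *Hba-x* (-1.35) the largest, and reads of the globin copies may be shared. With 1 library left out, 7 to 10 of the 15 markers were called, all as lower. Their summed level was 4241 to 6855 CPM in controls and 2259 to 3021 in mutants (0.479-fold, exact permutation test p = 0.1, the smallest possible). At E11.5 it was 4551 to 5682 and 4634 to 6020, and 0 of 15 were called by edgeR. At this stage 12 of the 15 had a positive fold change, and DESeq2 called 1, as higher in mutants. An unadjusted p under 0.05 was reached by 3, against 10.2% of all genes. With sex as a covariate, a fit that rests on the 1 male mutant library, the globin copy *Hba-a2* was at -4.22 at E11.5. The log2 fold change of *Tal1*, which erythroid precursors also express, was 0.46 at E11.5 and -0.33 at E12.5. The erythroid sums overlapped between genotypes at E11.5 (1.05-fold, exact permutation test p = 0.5). The part of the erythroid difference in the levels of *Tal1* was not tested. *Gata1*, the erythroid GATA factor, lies on the X chromosome outside the fits, and was at 7.91, 5.10 and 4.84 CPM in E11.5 controls and 11.2, 11.0 and 7.66 in mutants, and at 2.97, 1.30 and 3.44 in E12.5 controls and 1.94, 0.642 and 1.96 in mutants.

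Macrophage markers were lower in mutants at both stages, summing to 53.7 to 130.7 and 25.5 to 32.3 CPM at E11.5 and to 120.8 to 163.1 and 69.3 to 94.5 CPM at E12.5 (exact permutation test p = 0.1 at each). Of 12 tested, *C1qb* fell at E11.5 (-2.66), and *Mrc1* (-1.31), *Adgre1* (-1.14), *Tyrobp* (-1.01), *Cx3cr1* and *Csf1r* fell at E12.5. The call of *C1qb* was lost with sex as a covariate, a fit that rests on the 1 male mutant library. DESeq2 called 7 at E11.5, and with 1 library left out 0 to 2 were called at E11.5 (2 without control replicate 2, otherwise 0). At E12.5 4 were called without mutant replicate 1, 2 without control replicate 2, and 1 without any 1 of the other libraries. Of 7 platelet markers 0 were called at either stage by edgeR or DESeq2 (2 and 1 at an unadjusted p under 0.05). In E12.5 hearts, however, 7 of 7 had a positive fold change (median 0.292, *Itga2b* 0.29), and 2 were called without mutant replicate 2. Of 12 cardiomyocyte markers 0 were likewise called at either stage by edgeR or DESeq2. The unadjusted p was below 0.05 for 0 of them at E11.5 and for 5 at E12.5, against 10.2% and 21.4% of all genes. In E12.5 hearts 8 of the 12 had a positive fold change (*Myh7*, -0.09), and 1 was called without control replicate 3. *Fli1*, *Ets1* and *Lmo2* are also made by white blood cells, and the part of the macrophage difference in their levels was not tested.

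**Figure D4:**
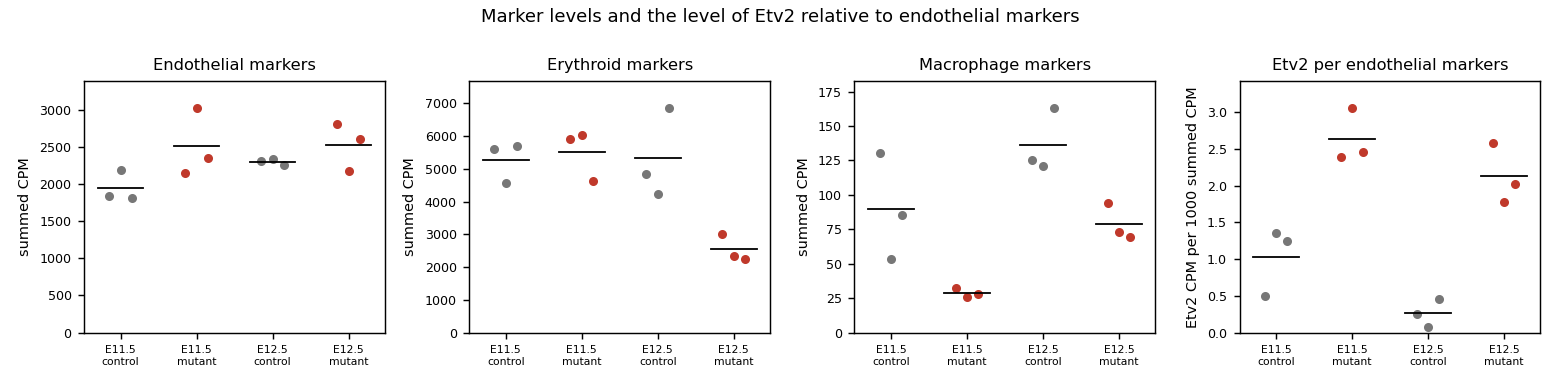
Summed CPM of endothelial, erythroid and macrophage markers and the CPM of *Etv2* per 1000 CPM of endothelial markers, in each library of the 4 groups (3 libraries each, lines are means, linear axes from 0). Erythroid sums are lower in mutants at E12.5 and not at E11.5, and *Etv2* per endothelial marker is higher in mutants at both stages.

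The genes whose pattern over the 12 libraries was most like that of *Etv2* were *Car14* (Pearson r of log2(CPM + 0.5) 0.938), *Slc9a3r1* (0.928), *St6galnac3* (0.923), *Acap1* (0.921) and 1600014C23Rik (0.92), of 12270 genes compared. With the group means removed the values were 0.846, 0.565, 0.717, 0.742 and 0.748. The points share their libraries and groups, and the r is a description. *Car14*, a carbonic anhydrase, was at 26.6 ± 2.65 and 34.3 ± 3.22 CPM in E11.5 controls and mutants and at 24.2 ± 4.51 and 33.5 ± 2.70 at E12.5 (SD, n = 3 each), a far smaller fold difference than that of *Etv2*.

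Some of the 10 genes share their position with others. *Elk3* overlaps *Cdk17* and *Lmo2* overlaps 4931422A03Rik, both on the opposite strand, and non-coding genes overlap *Fli1*, *Sox17* and *Ets1*. Some of those at *Fli1* lie on its own strand, where the strand cannot separate reads. Whether the counting used the strand is not given in the sources used here, so reads of the pairs on opposite strands could not be told apart either.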

How the data were processed

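Paired-end reads of embryonic heart RNA were aligned by the authors with Bowtie2 to mm10 and normalised with DESeq (submitters' processing notes and methods); the counting program is not given in the sources used here. A deposited table by the authors holds values labelled RPKM, and others give, per stage, their group-average counts, which are of the expected count kind since a mean can hold a fraction. The deposited per-library values are another kind of score, a whole count multiplied by a gene length and a library factor. Counts were recovered from both for 17827 genes, within 6.1e-09 of whole numbers, and recovery was checked on simulated data. The authors' fold changes, z scores and p-values were not used.

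Counts were tested with edgeR 4.0.16 (TMM, quasi-likelihood, Benjamini-Hochberg) in R 4.3.3 after dropping genes whose mean RPKM was under 0.5. Alternatives used DESeq2 1.42.0, limma 3.58.1 on log2(RPKM + 0.5) or log2(RPKM + 1), other filters and scaling, sex, a replicate block and libraries left out. SEs came from edgeR's F statistic. Libraries were called male with at least 100 counts on 4 Y-linked genes. Counting error is only the lower limit of the error.

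The 10 genes and 11 context lists were chosen with earlier results of these data known. The rule for naming genes took all 10, up to 4 called genes with the largest change per list (or its highest gene) and the 5 most like Etv2. It also took the neighbours of Etv2 within 50 kb, Hira, Nkx2-5, Mesp1, Foxc1 and Foxc2. Other named genes, such as Pdpn, Sox6, Hba-a2 and Gata1, lie outside this rule, and not all such genes are marked as picked afterwards.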

Additional observations from a re-analysis of the deposited data

How the results depend on the processing

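Of the single-gene values under the alternatives, 580 of 586 stayed on their side of the threshold, 5 gained a call and 1 lost one. The sign turned in 17, of 7 genes and 0 of them called, among them *Ets1* at E11.5 (-0.10 with sex) and *Sox18*, *Fli1*, *Elk3* and *Erg* with 1 library left out. Changed genes at E11.5 numbered 14, with 248 by DESeq2, 73 without the filter on low values, 221 with all 12 libraries in one fit, 29 with sex as a covariate, 6 at a mean RPKM of at least 5, 27 and 26 by limma with pseudocounts of 0.5 and 1, and 0 to 15 with 1 library left out (0 without control replicate 1 or 3 or mutant replicate 1 or 2). Of the 10 genes described, DESeq2 called 1 (*Etv2*) and the fit of all 12 libraries called 1 (*Erg*). At E12.5 there were 363, with 132 with all 12 libraries, 614 with no fold threshold, 158 at a mean RPKM of at least 5, where *Etv2* was not tested and 0 of the 10 were called, and 151 to 368 with 1 left out (151 without control replicate 1, 235 without control replicate 2, 216 without mutant replicate 1). Between stages in controls there were 647, with 336 with all 12 libraries, 19 with sex and 44 to 1406 with 1 left out (44 without E12.5 control replicate 1, 108 without replicate 2 of it, 1406 without E11.5 control replicate 2, 262 and 184 without replicates 1 and 3 of it). *Erg* was the 1 gene called, DESeq2 and no filter called 2 (*Etv2* was added), and 0 were called with sex. Between stages in mutants there were 68, with 226 by DESeq2, 119 without the filter, 119 with all 12 libraries and 1 to 123 with 1 left out (11, 1 and 10 without E12.5 mutant replicates 1, 2 and 3, and 123 without E11.5 mutant replicate 3), and DESeq2 called 1 of the 10 (*Tal1*). The difference between stages gave 0 genes, and 42 by DESeq2. The fits with sex at E11.5 and between stages in controls rest on 1 male library in 1 of the groups. The causes were not tested.

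The replicate numbers share no stated origin, so same-numbered libraries were not taken as pairs. Between genotypes at E11.5 their deviations correlated at -0.0275, 0.426 and 0.293 for replicates 1, 2 and 3. The values were 0.0231 to 0.0591 between genotypes at E12.5 and -0.121 to 0.167 between stages. With the replicate block 73 genes were called at E11.5, against 14 without it, and 34 between stages in mutants. *Etv2* at E11.5 then had a log2 fold change of 1.78 (edgeR adjusted p = 0.0501).

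The depth limits *Etv2* in controls, where 3 to 46 reads were counted, and 3 libraries per group limit all of the tests.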

Other observations

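Of the 12270 genes compared, *Hirip3*, whose product binds HIRA, had the pattern most opposite to that of *Etv2* over the 12 libraries (Pearson r of log2(CPM + 0.5) -0.976, and -0.85 with group means removed). It was picked after its values had been seen. *Hirip3* was at 51.7 ± 1.71 CPM in E11.5 controls and 41.4 ± 2.54 in mutants, and at 60.9 ± 5.19 in E12.5 controls and 44.8 ± 1.75 in mutants (SD, n = 3 each). The groups did not overlap at either stage. The log2 fold changes were -0.31 (SE 0.12, edgeR adjusted p = 0.382) and -0.43 (SE 0.09, edgeR adjusted p = 0.0196), below the fold threshold of 1.5.

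Of the ETS genes on the X chromosome, which the fits do not hold, *Elk1* was at 22.7 to 30.9 CPM in E11.5 controls and 21.8 to 28.0 in mutants, and *Elf4* at 53.5 to 68.2 and 56.3 to 76.6.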
